A study of Sus scrofa with 6 samples.

Results

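Cytosolic ribosomal protein genes were described in 6 clones of pig keratinocytes, the epithelial cells that cover surfaces such as the cornea and the conjunctiva. Members were taken by symbol: RPL or RPS followed by a digit, RPSA, RPLP0, RPLP1 or RPLP2, as the only symbol of a probe set, without the RPS6K kinases. Of several probe sets for the same gene, the brightest on average was kept. This gave 64 genes of the 6765 that had a probe set with 1 symbol, 38 with a large-subunit (RPL) and 26 with a small-subunit (RPS) symbol. Of a list of 79 genes for the core proteins of the cytosolic ribosome, 58 were among them. The other 6 members were RPL22L1, RPL26L1, RPL36AL, RPL7L1, RPS27L and RPS19BP1, which are copies of core genes or, for RPS19BP1, a gene named for a binding partner of RPS19. The core genes RPL10, RPL35A and RPL36 had probe sets only beside another symbol and were not analysed here.

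The study set 3 clones of the central cornea beside 3 of the conjunctiva, 1 array per clone, to compare expression in the epithelia of both tissues. All clones came from white domestic pigs. The labels name 2 of these, tie no clone to an animal and give no age, genotype or treatment. The run headers of all 6 arrays carry a project name about a time course of irradiation. No label speaks of one, and the groups here follow the labels. The biopsies were taken 6 mm from the limbus, the border between cornea and conjunctiva, and each clone was raised from 1 cell on a feeder layer of mouse fibroblasts (the irradiated 3T3-J2 line). Clones of a tissue may thus share an animal, and p-values measure only the spread between these samples.

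The ribosome is built from a large and a small subunit, each made of ribosomal RNA and a set of small basic proteins that are needed in nearly equal numbers. Many ribosomal protein mRNAs start with a run of pyrimidines, the terminal oligopyrimidine motif, through which growth signalling by mTOR and the binding protein LARP1 controls their translation. Dividing epithelial cells spend much of their transcription on these genes and on the nucleolar factors that assemble the subunits.

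All arrays had medians between 4.4 and 4.478 on the log2 scale of the robust multi-array average (RMA), in which 1 unit is a 2-fold difference. Of 33 keratinocyte markers 11 were measured, and SFN, PERP, DSP and CDH1, genes of epithelial cells and their junctions, had means of 12.86, 13.24, 12.09 and 11.10, while the integrin ITGA6 stood at 3.60. The basal keratins KRT5 and KRT14 and the regulator TP63 were not analysed here. The 12 fibroblast genes measured ran from 2.89 for LUM to 10.82 for THY1, with POSTN and FAP at 3.27 and 3.34 but COL1A2, PDGFRB, DCN and COL5A1 at 7.10, 6.71, 6.69 and 6.30. Of 7 leukocyte genes, the pan-leukocyte gene PTPRC stood at 3.44, CD14, TYROBP, CD3E and CD163 between 3.53 and 4.14, and AIF1 and LAPTM5 at 7.49 and 7.65. The endothelial genes CDH5 and TEK stood at 3.47 and 3.17 and PECAM1 at 7.69, and the 3 melanocyte genes measured at 4.63 or lower. The part of such cells in the values was not tested. In bulk RNA, fewer cells of a type and less RNA per cell cannot be told apart.

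Ribosomal protein transcripts gave some of the strongest signals on the array. The median over the 64 members was 12.57, against 6.11 over all genes. Of the members, 51 had a mean of at least 12 and 5 lay between 10 and 12. Members made up 51.5% of the 99 genes with a mean of at least 12, and 7 of the 20 brightest genes. Probe sets differ in their response, so these values rank signals and not transcript numbers.

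The brightest members were RPS18, RPS20, RPLP0, RPS29 and RPS2. RPS18, a protein of the head of the small subunit, was at 13.53, 13.56 and 13.79 in corneal clones 1, 2 and 3 and at 13.70, 13.81 and 13.67 in conjunctival clones 1, 2 and 3. RPLP0, the base of the stalk that recruits translation factors to the large subunit, was at 13.43, 13.34 and 13.51 in cornea and at 13.36, 13.39 and 13.45 in conjunctiva. The 6 values lay close together for both genes and the tissues overlapped. The other stalk proteins, RPLP1 and RPLP2, had means of 11.71 and 11.46.

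At the other end, 8 members had means below 10. The copies RPL7L1, RPS27L and RPL26L1 stood at 9.82, 9.73 and 9.12, and RPS19BP1, which is no copy, at 7.37. The core genes RPL37, RPL26, RPS15A and RPL30 stood at 5.78, 3.39, 3.21 and 3.07, and each was measured by 1 probe set. The last 3 of these lay below the median of all probe sets, 4.45. Values of these core genes may therefore hold little signal of the transcript. Levels by clone are given mainly over the 56 members with a mean of at least 10, and tissue differences mainly over all 64.

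Dim second probe sets were common in this family. Of the 24 members with several probe sets, 22 had probe sets over 2 log2 units apart, and 14 had at least 1 probe set whose tissue difference had the opposite sign to that of the brightest. RPL12 had probe sets with means of 12.72, 6.35 and 4.08, RPS28 had them at 12.81, 7.27 and 3.70, and RPS27 at 12.83 and 7.67. By contrast, the pair of RPL31 probe sets stood at 12.81 and 12.76.

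**Figure D1:**
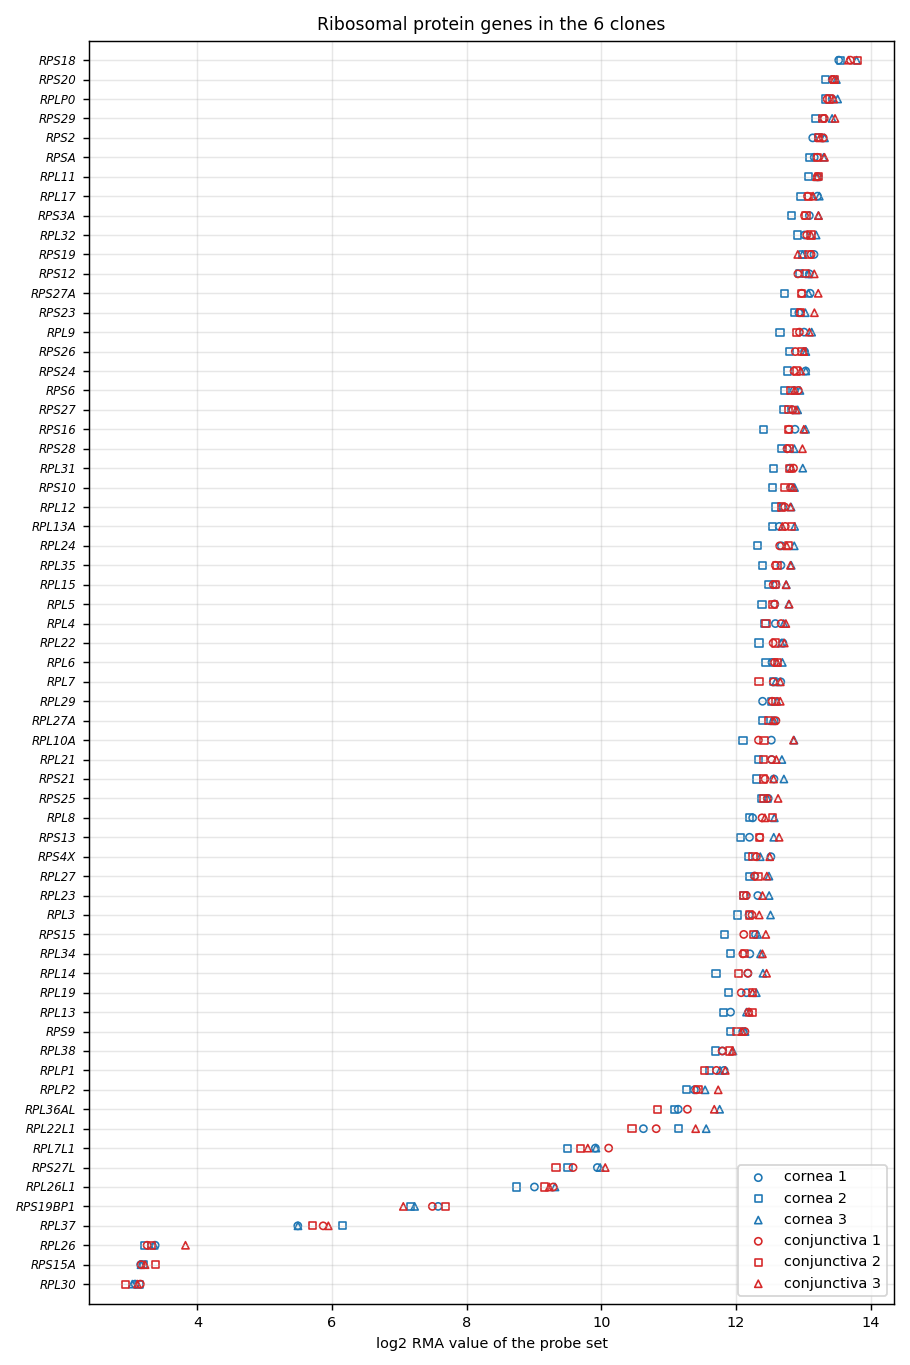
Log2 RMA value (x axis) of each of the 64 ribosomal protein genes (y axis, ordered by mean) in the 3 corneal clones (blue) and the 3 conjunctival clones (red), with 1 symbol shape per clone number. Of the genes, 56 have means of at least 10, and the squares of cornea 2 are mostly at the left edge of each row.

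Levels of the bright members differed little between clones. Over the 56 members with a mean of at least 10, the highest and lowest clone were a median of 1.25-fold apart, from 1.11-fold for RPL11 to 2.15-fold for RPL22L1, and 55 of the 56 kept all clones within 2-fold. The pooled SD of clones within a tissue had a median of 0.13 log2 units in both the 64 members and these 56. It was 0.12 for the 51 members at or above 12, 0.14 for the 48 other genes that bright and 0.22 for all genes.

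The tightest members were RPS20, RPL11 and RPS2. RPS20, a protein of the small subunit head, was at 13.43, 13.33 and 13.49 in corneal clones and at 13.44, 13.46 and 13.46 in conjunctival clones, with a pooled SD of 0.058. RPL11, a large-subunit protein that can bind the p53 regulator MDM2, was at 13.22, 13.08 and 13.21 in cornea and at 13.21, 13.23 and 13.20 in conjunctiva. In both genes cornea 2 was the lowest clone and the other 5 lay within a narrow band.

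The widest members were RPL22L1, RPL36AL, RPL10A, RPS27L and RPL14, of which RPL22L1, RPL36AL and RPS27L are copies of core genes. RPL36AL was at 11.14, 11.08 and 11.76 in corneal clones 1, 2 and 3 and at 11.28, 10.83 and 11.68 in conjunctival clones 1, 2 and 3. RPL10A, a protein of the mobile L1 stalk, was at 12.53, 12.11 and 12.86 in cornea and at 12.34, 12.42 and 12.86 in conjunctiva. RPL14, a large-subunit protein, was at 12.18, 11.70 and 12.40 in cornea and at 12.18, 12.04 and 12.46 in conjunctiva. In these 3 genes the clones numbered 3 were the highest of both tissues, and the tissues overlapped.

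**Figure D2:**
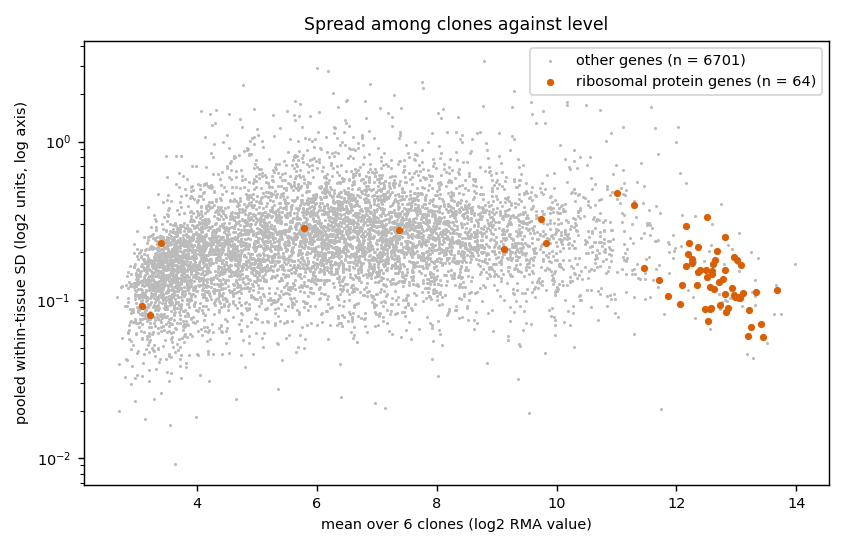
Pooled within-tissue SD of the clones (y axis, log2 units on a log axis) against the mean over 6 clones (x axis, log2 RMA value) for the 64 ribosomal protein genes (orange) and all other genes (grey). Most ribosomal protein genes lie at the right edge with an SD between 0.058 and 0.47.

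The members moved together from clone to clone, and cornea 2 stood apart. Measured as the median deviation of the 56 bright members from their own 6-clone means, corneal clones 1, 2 and 3 lay at 0.0080, -0.16 and 0.11 log2 units, and conjunctival clones 1, 2 and 3 at -0.016, -0.030 and 0.10. Cornea 2 was below the 6-clone mean for 55 of the 56. It was the lowest clone for 46 of the 56 and for 49 of all 64, while it was the lowest for 18.5% of all probe sets and for 27.1% of the 48 other genes at or above 12. Those 48 genes had a median deviation of -0.0095 in cornea 2. They are not free of translation genes, since they include FAU, a core gene outside the symbol rule, and EEF1B2, an elongation factor.

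Both subunits shared this. Cornea 2 was lowest for 27 of 33 bright large-subunit members and for 19 of 23 small-subunit members, with median deviations of -0.18 and -0.15. The members farthest below their mean in cornea 2 were RPL14, RPL10A, RPS16, RPS15 and RPL24. RPS16, a protein near the decoding site, was at 12.88, 12.41 and 13.04 in corneal clones and at 12.79, 12.78 and 13.01 in conjunctival clones. RPS15, at 12.29, 11.83 and 12.32 in cornea and 12.12, 12.26 and 12.44 in conjunctiva, likewise had 1 low clone and 5 that overlapped between tissues.

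The 10 bright members for which another clone was lowest were RPL22L1, RPL23, RPL29, RPL36AL, RPL7, RPLP1, RPS12, RPS18, RPS19 and RPS2, named after their values were seen. Of these, 5 had their lowest value in conjunctiva 2 (RPL22L1, RPL23, RPL36AL, RPL7 and RPLP1). RPS19, the small-subunit protein mutated in many cases of Diamond-Blackfan anaemia, had its lowest value in conjunctiva 3. It was at 13.16, 12.99 and 12.99 in cornea and at 13.12, 13.09 and 12.92 in conjunctiva.

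At the high end, cornea 3 was the highest clone for 31 and conjunctiva 3 for 18 of the 56 bright members, together 49. Cornea 3 was the highest for 23.4% and conjunctiva 3 for 17.4% of all probe sets, and for 25% and 4.17% of the 48 other bright genes. Both clones numbered 3 lay above both numbered 2 for 45 of the 56 bright members, compared with 26.5% of all probe sets and 29.2% of the other bright genes. They lay above both numbered 1 for 35 of the 56, compared with 27.7% and 22.9%. The reverse order, both numbered 2 above both numbered 3, was seen for 0 of the 56, and for 17.1% of all probe sets. The labels do not say what a shared clone number stands for.

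As a share of each gene's variance over the 6 clones, the clone number took a median of 72.5% over the 64 members, tissue 5.48% and the rest 21.2%. The same medians over all probe sets were 48.9%, 10.4% and 29.7%, and over the other genes at or above 12 they were 64.7%, 7.93% and 24.6%. There are 3 clone numbers and 2 tissues, so the number takes a larger share than tissue even without any effect. Shares are thus to be read beside those of other genes. RPS27, a zinc finger protein of the small subunit, had 92% of its variance by clone number, at 12.84, 12.72 and 12.92 in corneal clones 1, 2 and 3 and 12.84, 12.78 and 12.89 in conjunctival clones 1, 2 and 3. The order of numbers was the same in both tissues for this gene.

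**Figure D3:**
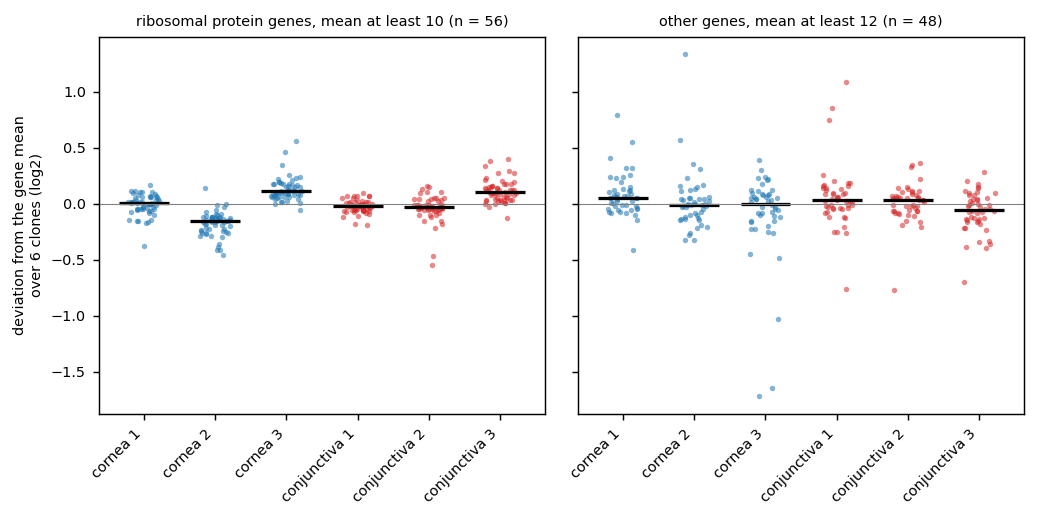
Deviation of each gene from its mean over the 6 clones (y axis, log2 units) by clone (x axis) for the 56 ribosomal protein genes with a mean of at least 10 (left) and the 48 other genes with a mean of at least 12 (right). Points are genes, blue for cornea and red for conjunctiva, and bars are medians, which for ribosomal protein genes are lowest in cornea 2 at -0.16 and highest in the clones numbered 3 at 0.11 and 0.10.

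No ribosomal protein gene passed in the comparison of tissues by limma. The count was 0 of 64 at adjusted p 0.05 over all 23999 probe sets, where 0% of probe sets passed, and the smallest adjusted p of a member was 0.9999. At an unadjusted p under 0.05 the count was also 0 of 64, against 2.7% of all probe sets. With the clone number as a block both member counts were 0 as well, while 5.02% of all probe sets had an unadjusted p under 0.05.

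Member differences, conjunctiva minus cornea, ran from -0.22 to 0.25 log2 units with a median SE of 0.12. The 95% interval of limma excluded a 2-fold difference for 64 of 64 members, a 1.5-fold difference for 59 and a 1.25-fold difference for 23. Over the 56 members with a mean of at least 10 the counts were 56, 53 and 22. Over all probe sets the shares were 91.9%, 68.7% and 15.3%. They were 91.7%, 83.3% and 29.2% over the 48 other genes at or above 12, and 100%, 94.6% and 39.3% over those 56 members. The 5 members whose interval reached 1.5-fold were RPL22L1, RPL36AL, RPS27L, RPL14 and RPL37.

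Small differences leaned towards conjunctiva, and this lean turned without cornea 2. Of the 64 members, 49 had a higher mean in conjunctiva, with a median difference of 0.045, where 49.2% of all probe sets were higher and their median was -0.0025. Over the 56 members with a mean of at least 10, 43 were higher (median 0.044). The shares higher were 53.5% of all genes and 50% of the other genes at or above 12. By subunit, 29 of 38 large-subunit and 20 of 26 small-subunit members were higher, with medians of 0.044 and 0.050. Without cornea 2 the count was 18 of 64 and the median -0.038, where 46.4% of all probe sets were higher. Of the 48 other genes at or above 12, 19 were higher without cornea 2, with a median of -0.035. With all clones the median of those 48 was -0.00094. Without conjunctiva 3 the count of members was 33 of 64 and their median 0.0085, while 28 of the 48 were higher (median 0.019).

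Within clone numbers the lean was seen in number 2 alone. Conjunctiva 1 was above cornea 1 for 31 of the 64 members, conjunctiva 2 above cornea 2 for 55 and conjunctiva 3 above cornea 3 for 27, with median differences of -0.0018, 0.14 and -0.013. Over all probe sets the shares higher in conjunctiva were 47.4%, 53.7% and 47.5% for numbers 1, 2 and 3. For the 48 other genes at or above 12 they were 47.9%, 58.3% and 35.4%, with medians of -0.0025, 0.041 and -0.043. Within fluidics station 1, an array washing unit that held cornea 1 with conjunctiva 2 and 3, 40 of 64 were higher (median 0.046), and within station 2, which held the other arrays, 38 (median 0.014). Each station held 1 array of 1 of the tissues, so these values have little replication.

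**Figure D4:**
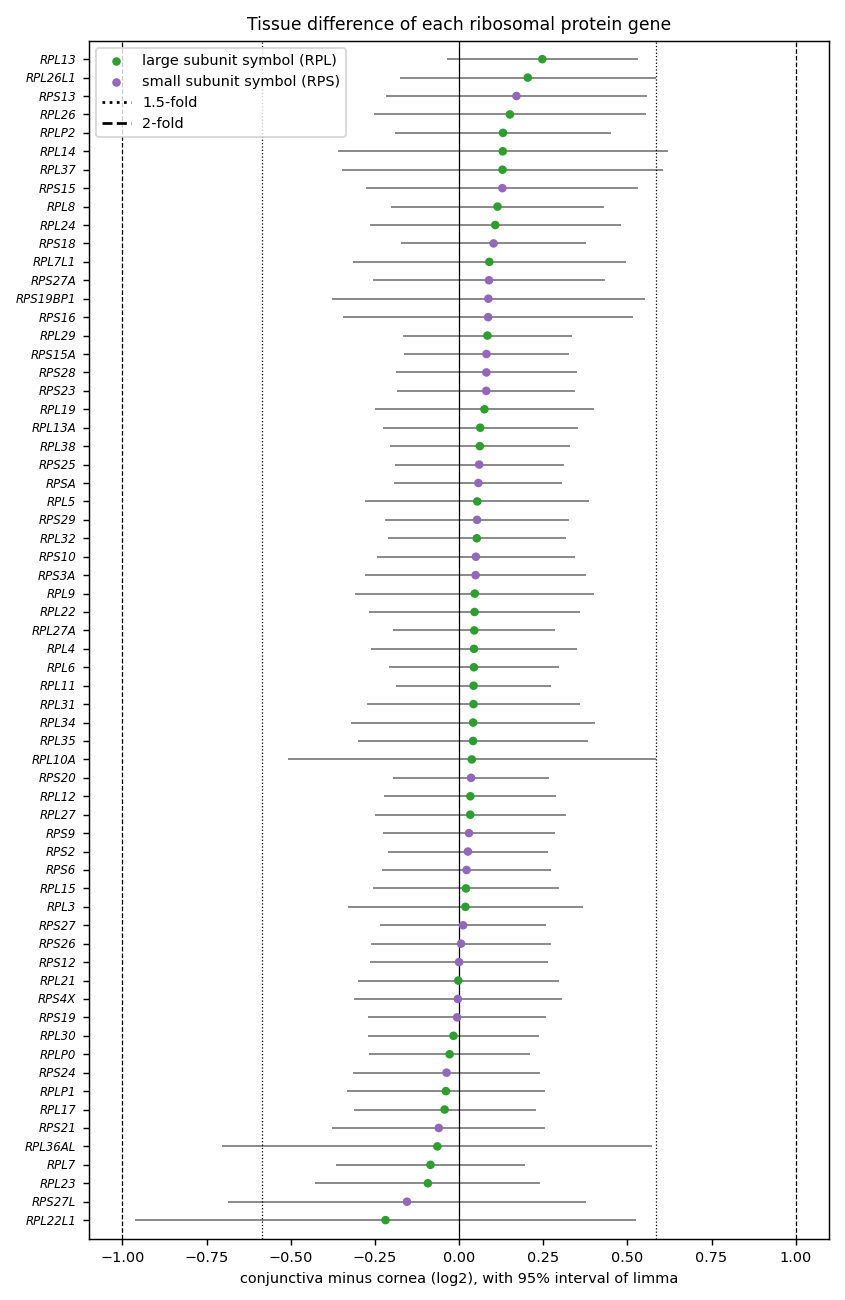
Difference between tissues (x axis, conjunctiva minus cornea, log2) for each of the 64 ribosomal protein genes (y axis), with the 95% interval of limma as a bar, green for large-subunit and purple for small-subunit symbols. Every interval holds 0 and lies within the dashed lines at 2-fold, and 59 lie within the dotted lines at 1.5-fold.

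RPL13, a large-subunit protein, was the only member whose values did not overlap between tissues, where 7.28% of all probe sets and 2.08% of the other genes at or above 12 did not. It was at 11.92, 11.82 and 12.16 in corneal clones and at 12.19, 12.25 and 12.20 in conjunctival clones. The difference was 0.25 log2 units (SE 0.12), 1.19-fold higher in conjunctiva with a 95% interval of 0.975-fold to 1.45-fold and a limma adjusted p of 0.9999. The highest corneal value, 12.16 in clone 3, lay just under the lowest conjunctival one.

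Next by p among members higher in conjunctiva came RPL26L1, RPS13, RPLP2, RPL26 and RPS18, at limma adjusted p of 0.9999 each. RPS13, at 12.20, 12.07 and 12.56 in cornea and 12.36, 12.35 and 12.64 in conjunctiva, differed by 0.17 (SE 0.16), and by 0.068 without cornea 2. RPLP2 differed by 0.13 (SE 0.13), and by 0.027 without conjunctiva 3. RPL26, at a dim mean, differed by 0.15 (SE 0.17), and by -0.027 without conjunctiva 3. RPS18 differed by 0.10 (SE 0.12), and by 0.054 without cornea 1. The tissues overlapped in each of them.

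Smallest by p among members lower in conjunctiva were RPL7, RPL22L1, RPS27L, RPL23, RPS21 and RPL17. RPL7, a large-subunit protein, was at 12.67, 12.56 and 12.59 in cornea and at 12.56, 12.34 and 12.66 in conjunctiva, a difference of -0.085 (SE 0.12) that was 0.0031 without conjunctiva 2. RPL23, a protein at the interface of the subunits that can also bind MDM2, differed by -0.093 (SE 0.14). Its dimmer probe sets, at means of 7.57 and 7.37, differed by -0.11 and 0.67. RPS21 and RPL17 differed by -0.060 (SE 0.13) and -0.043 (SE 0.11). The tissues overlapped in all 6 genes.

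The dim RPLP1 probe set had values that did not overlap between tissues, which held for 7.28% of all probe sets. It was at 4.08, 4.16 and 4.26 in cornea and at 4.62, 4.66 and 4.73 in conjunctiva, a difference of 0.51 (SE 0.10) at a limma adjusted p of 0.9999. The bright RPLP1 probe set, at 11.83, 11.61 and 11.76 in cornea and 11.71, 11.53 and 11.84 in conjunctiva, differed by -0.039 (SE 0.12) and overlapped. Dim probe sets of RPS27A and RPL27, at means of 6.15 and 3.83, had no overlap either, with differences of 0.35 (SE 0.14) and 0.15 (SE 0.10).

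RPL22L1, RPS27L, RPL7L1 and RPS19BP1 had larger SDs between clones than the core genes they are named after. Their means were also lower, at 11.00, 9.73, 9.82 and 7.37 beside 12.60, 12.83, 12.56 and 13.04. The median SD was 0.22 over all genes and 0.14 over other genes at or above 12, so level and copy cannot be told apart here. RPL22L1, a copy of RPL22 that can take its place in the ribosome, was at 10.63, 11.15 and 11.56 in corneal clones 1, 2 and 3 and at 10.82, 10.46 and 11.40 in conjunctival clones 1, 2 and 3. Its pooled SD was 0.47, and that of RPL22 was 0.15. RPL22 was at 12.70, 12.34 and 12.68 in cornea and at 12.55, 12.58 and 12.72 in conjunctiva. In cornea 2 RPL22 had its lowest value and RPL22L1 stood above 3 other clones. The tissue differences were -0.22 (SE 0.31) for RPL22L1 and 0.046 (SE 0.13) for RPL22, and that of RPL22L1 was -0.0011 without conjunctiva 2.

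RPS27L, a copy of RPS27 and a known p53 target, was at 9.94, 9.50 and 9.98 in corneal and 9.58, 9.33 and 10.06 in conjunctival clones. Its pooled SD was 0.32 against 0.083 for RPS27, and the tissue differences were -0.15 (SE 0.22) and 0.012 (SE 0.10). RPL7L1, a relative of RPL7 that acts in subunit assembly, had a pooled SD of 0.23 against 0.12 for RPL7 and differed by 0.090 (SE 0.17). RPS19BP1, which encodes a regulator of the deacetylase SIRT1, had a pooled SD of 0.27 against 0.10 for RPS19, and these genes differed by 0.087 (SE 0.20) and -0.0058 (SE 0.11). RPL36AL differed by -0.064 (SE 0.27). RPL26L1, at 9.01, 8.74 and 9.31 in cornea and 9.29, 9.16 and 9.23 in conjunctiva, differed by 0.20 (SE 0.16) and by 0.064 without cornea 2, with an SD of 0.21 beside 0.23 for the dim RPL26. The difference in spread was not tested.

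Other genes of the translation pathway were described from lists by role, none of which had a gene past limma adjusted p 0.05. Among 14 measured elongation factors and other mRNAs of the terminal-pyrimidine class, 11 were higher in conjunctiva (median 0.059, and 7 of 14 without cornea 2). VIM differed by 0.51 (SE 0.29), and by 0.22 without conjunctiva 3, while EEF1B2, an exchange factor for elongation, differed by -0.18 (SE 0.17). Of 30 initiation factors 16 were higher (median 0.0029, and 7 without cornea 2), with EIF4E2, a cap-binding repressor, at 0.39 (SE 0.15) and the helicase cofactor EIF4B at -0.24 (SE 0.16). Of 49 assembly and nucleolar genes 35 were higher (median 0.084, and 18 without cornea 2). SBDS, which prepares the large subunit for joining, differed by 0.42 (SE 0.16) and BOP1, a factor of large-subunit assembly, by -0.12 (SE 0.12).

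Of 57 mitochondrial ribosomal protein genes, which serve the separate ribosome of that organelle, 45 were higher in conjunctiva (median 0.088) and 22 without cornea 2. MRPL11 differed by 0.34 (SE 0.21), which was 0.13 without cornea 2. The difference of MRPL44 was -0.38 (SE 0.24). Subunits of RNA polymerases I and III, which make ribosomal, 5S and transfer RNA, and their factors were higher for 13 of 16 (median 0.069, and 10 without cornea 2). Growth regulators were higher for 7 of 13 (median 0.019), and for 10 of 13 without cornea 2 (median 0.100). RHEB, the activator of mTOR, differed by 0.24 (SE 0.15), and by 0.100 without cornea 2. Genes of p53 and ribosome surveillance were higher for 6 of 10 with and without cornea 2, with medians of 0.017 and 0.051.

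By clone, several of these lists were lowest where the ribosomal protein genes were lowest. In cornea 2 the median deviation was -0.14 for the terminal-pyrimidine class, -0.18 for initiation factors, -0.39 for assembly genes and -0.29 for mitochondrial ribosomal protein genes. Growth regulators and the p53 and surveillance list lay above 0 there, at 0.028 (8 of 13 above their mean) and 0.12 (8 of 10). The lists also parted from the members in other clones. In conjunctiva 1, where the bright members lay at -0.016, assembly genes lay at 0.30, and in conjunctiva 3, where the members lay at 0.10, initiation factors lay at -0.019. The terminal-pyrimidine class lay at -0.024, -0.14 and 0.086 in corneal clones 1, 2 and 3 and at 0.0062, -0.021 and 0.15 in conjunctival clones 1, 2 and 3.

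Cell cycle genes and RNA quality are given beside the clone levels. The 29 measured cell cycle genes had median deviations of -0.014, -0.91 and 0.34 in corneal clones 1, 2 and 3 and of 0.22, 0.031 and 0.27 in conjunctival clones 1, 2 and 3, with 0 of 29 above their mean in cornea 2. The 3' minus 5' signal of control genes grows as RNA is degraded. For actin it was 1.07 in cornea 2 and 1.11 in conjunctiva 3, the clones with the lowest and a high level of ribosomal protein genes, and between 0.46 and 0.93 in the other 4. For GAPDH it was 0.25 in cornea 2, within the range of -0.13 to 0.42 of the others, and for EF1A -0.16 in both cornea 2 and cornea 3. The part of cell cycle genes or RNA quality in the level of ribosomal protein genes was not tested. The control probe set for 18S ribosomal RNA with the higher signal lay between 8.13 and 8.64 in the 6 clones, and in cornea 2 at 8.58. The others were less even. Those for 28S ran from 6.40 to 8.55 (cornea 2 at 7.45) and from 9.38 to 10.30 (cornea 2 at 9.47). The one for 5S ran from 4.11 to 5.57 (cornea 2 at 4.79), and the dimmer one for 18S from 5.21 to 5.51 (cornea 2 highest). How well these controls follow ribosomal RNA was not tested.

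**Figure D5:**
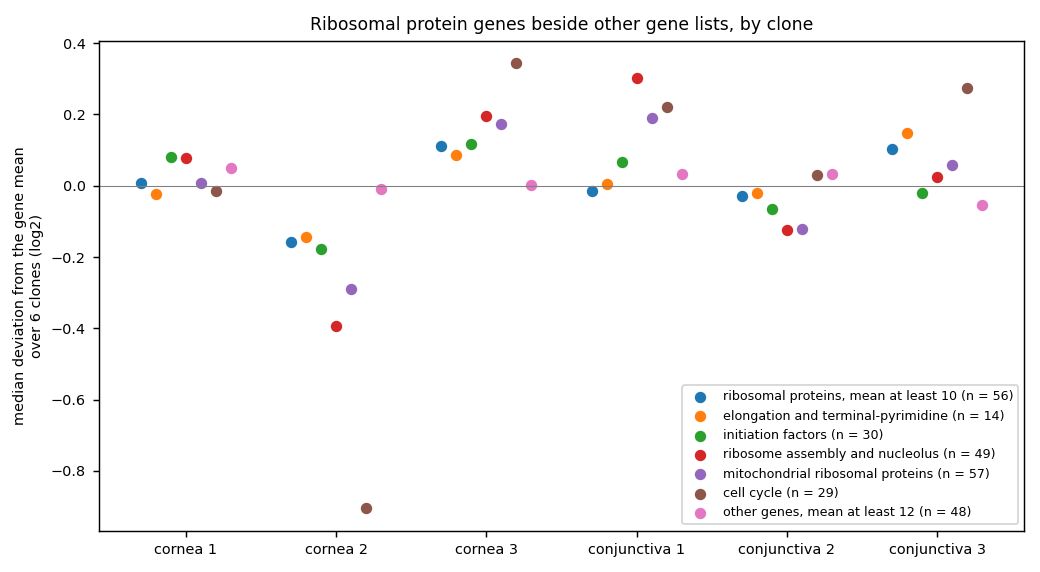
Median deviation from the gene mean over 6 clones (y axis, log2 units) by clone (x axis) for ribosomal protein genes with a mean of at least 10 and for 6 other sets of genes, each in 1 colour with its number of genes. In cornea 2 every list of translation and cell cycle genes shown is below 0, from -0.14 for the terminal-pyrimidine class to -0.91 for cell cycle genes, while the other genes at or above 12 are at -0.0095.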

How the data were processed

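The deposited table held log2 values made by the authors with RMA, per the submitters' processing notes. The version was not given in the sources used here. RMA subtracts background, makes the distributions of arrays alike and fits 1 value per probe set, so an overall rise or fall in RNA is not visible. Fluidics station and module were read from the array run headers. Without the 124 controls, 23999 probe sets were fitted together with no filter on low values. The number of arrays limits the precision.

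Symbols came from the platform annotation. All 64 members matched a RefSeq gene (Sscrofa11.1) by gene ID. Tissues were compared two-sided by lmFit and eBayes of limma 3.58.1 under R 4.3.3, and p-values were adjusted by Benjamini-Hochberg over the whole table. The fit was tested on simulated data. Lists were described by counts and medians with no test. The members and lists were chosen with earlier results of these data known.

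Named members were the 6 with the smallest p in each direction, the 5 brightest and 5 dimmest, the 5 widest and 3 tightest between clones, those outside the core list with their partners, and those with probe sets over 2 log2 units apart, of which examples are given. Genes of other lists were taken from the 2 with the smallest p in each direction. Members that stood out by clone, and the dim probe sets of RPLP1, RPS27A and RPL27, were chosen after their values were seen. Alternatives were the clone number or station as a block, each station alone, centring, other limma options, a filter on low values, other probe sets and each clone left out. Deviations of same-numbered clones correlated across all probe sets (r = 0.354, 0.169 and 0.349), the only basis for pairing, since the labels give no meaning of the number. Unlike-numbered pairs had r of -0.38 to 0.11 there. Over the members, same-numbered pairs had r of 0.075, 0.067 and 0.49, and unlike-numbered pairs -0.39 to 0.35. The r across members leaves out any shift common to all members of a clone, so it does not cover their shared level. In what remains, numbers 1 and 2 did not stand out as pairs among members.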

Additional observations from a re-analysis of the deposited data

How the results depend on the processing

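No member passed limma adjusted p 0.05 in any of the 14 alternatives fitted to probe sets (smallest adjusted p 0.938, with the replicate block). The filter on low values fitted only probe sets at or above the median level, and the others fitted all. The count over the probe sets fitted was 2 with limma's trend and robust options and 0 in the other alternatives. The replicate block changed no call and kept the median difference at 0.045 and 49 of 64 higher. Without 1 clone, the members higher in conjunctiva numbered 18 (without cornea 2) to 57, those without overlap 1 to 16 and the median difference was -0.038 to 0.11. Those without overlap were 3 with arrays centred on their medians, 4 with the dimmest and 2 with the mean of a gene's probe sets. With 1 clone left out, a tissue keeps only 2, and values then fail to overlap more easily. The shares of all probe sets without overlap are not given for these settings, so no rise among members can be read from the counts. Of the 64 signs, 33 changed without cornea 2, 15 within station 1, 21 within station 2 and 0 with the replicate block. Centring on medians gave 54 of 64 higher. Station as a block changed 4 signs, median centring 5, the mean of probe sets 7 and the dimmest probe set 12. Turned values are given only for members named by p, or outside the core list with their partners. With station as a block, RPL22 turned to -0.0017. Within station 1 these were RPL22 -0.047, RPL22L1 0.30, RPL36AL 0.11, RPL7L1 -0.17, RPS19BP1 -0.21 and RPS27 -0.0088. Within station 2 they were RPL26 -0.033 and RPS19 0.13. With the mean of probe sets they were RPL23 0.16 and RPS27 -0.034, and with median centring RPS19 0.020. The causes were not tested. Ranges without 1 clone are -0.13 to 0.0069 for RPL17, -0.068 to 0.11 for RPL22, -0.47 to 0.0060 for RPL22L1, -0.027 to 0.26 for RPL26, -0.27 to 0.15 for RPL36AL, -0.15 to 0.0031 for RPL7, -0.049 to 0.18 for RPL7L1, -0.044 to 0.055 for RPS19, -0.049 to 0.26 for RPS19BP1, -0.17 to 0.032 for RPS21, -0.043 to 0.058 for RPS27, -0.36 to 0.0098 for RPS27L, 0.17 to 0.34 for RPL13, -0.19 to -0.0022 for RPL23, 0.064 to 0.35 for RPL26L1, 0.027 to 0.20 for RPLP2, 0.068 to 0.31 for RPS13 and 0.054 to 0.19 for RPS18. The threshold on bright members, centring on other bright genes and the module as a random block were chosen after seeing the data. Dim probe sets for RPL26, RPL30 and RPS15A limit what is said of them. The planned description of pyrimidine runs at start sites was not run, since no promoter sequences were used here.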
